A study of Mus musculus with 6 samples.

Results

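The genes described here encode the proteins of the cytosolic ribosome. They were all protein-coding records whose symbol had the form of a large subunit name (Rpl and a number, or Rplp0 to Rplp2) or a small subunit name (Rps and a number, or Rpsa), leaving out records named as pseudogenes (-ps) and the Rps6k kinases. This gave 83 of the 51912 genes in the deposited tables, 51 with large subunit names and 32 with small subunit names. The rule used names only and no measured value. Levels passed the filter on low values for 81 of them, and the testis-type paralog Rpl10l and the muscle-type paralog Rpl3l did not.

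The cells came from the bone marrow of wild-type mice, as its mononuclear fraction (BMMNCs), and grew for 10 days before collection. One group grew on hHVS, a scaffold whose name the labels do not spell out, and the other on PCL, the usual abbreviation of polycaprolactone, a synthetic polyester. Each group had 3 libraries of messenger RNA, numbered 1 to 3 in the titles, and the series asked how the material affects the cells. Nothing in the labels ties the libraries of a group to different mice or cultures, and the p-values therefore reflect the spread between these samples alone, which may be technical. Totals were 75.1, 83.6 and 78.8 M units in hHVS replicates 1 to 3 and 74.1, 72.1 and 74.1 M units in PCL replicates 1 to 3, and about 4 units stood for 1 sequenced fragment. Summed levels of marker lists for monocytes and macrophages and for other cell types are given further on, as CPM (units scaled to a common library total).

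A cytosolic ribosome holds one copy of nearly every ribosomal protein, so a cell makes these proteins in matched amounts. Their messengers are among the most abundant in growing cells, and most begin with a cytosine followed by a run of pyrimidines, the 5′ terminal oligopyrimidine (TOP) tract. Through that tract the growth kinase complex mTORC1 and the RNA-binding protein Larp1 control their translation. Pseudogenes copied from these messengers are common in mammalian genomes, and reads cannot always be told apart between a gene and its copies.

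RefSeq promoter windows (build GRCm38.p6, 250 bases before to 50 after each annotated start) were matched by symbol for 63 of the 83 genes, with 75 entries. A pyrimidine run of at least 8 bases (letters C or T, on the strand of the gene) lay within 25 bases of the annotated start in 34 of the 75 entries, or 45.3%, against 19.7% of all 32851 promoter entries. On either strand of the whole window, CCGGAA, the core of ETS family motifs, was found in 48.0% of the entries against 14.9% of all promoters. AAGATGG, the core of the YY1 motif, was found in 12 entries, or 16%, against 6.34%, and the TATA box letters TATAAA in 9.33% against 13.6%. Motifs were searched one by one, so matches may overlap. A match describes letters near an annotated start and is not a measured binding site or transcript end.

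The 10 windows printed here run from 60 bases before to 20 bases after the start. Capitals mark the longest pyrimidine run inside the searched stretch of 25 bases on either side, and a run crossing its edge was cut there. They show the start of Rps6, whose run spans the annotated start, and the longest run among the genes discussed in detail (Rpl7a). Also shown are the abundant Rplp0 and Rpl41, and 3 ordinary genes beside their paralogs. The run of Rplp0 equalled the median of the 75 entries, 7 bases, and that of Rpl41 was shorter. The windows are, in this order, chr4:86857348-86857427 (minus strand), chr2:26910747-26910826 (plus), chr5:115559407-115559486 (plus), chr10:128549149-128549228 (minus), chr3:90213629-90213708 (minus), chr9:66946026-66946105 (plus), chr4:152325666-152325745 (plus), chr3:28805448-28805527 (plus), chrX:37085203-37085282 (minus) and chr16:10170168-10170247 (plus).
Rps6: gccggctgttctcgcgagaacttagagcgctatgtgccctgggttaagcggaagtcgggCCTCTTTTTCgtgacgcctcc
Rpl7a: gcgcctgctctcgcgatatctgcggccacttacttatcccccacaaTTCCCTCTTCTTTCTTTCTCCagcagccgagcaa
Rplp0: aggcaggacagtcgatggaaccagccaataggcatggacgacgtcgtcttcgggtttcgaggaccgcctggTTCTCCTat
Rpl41: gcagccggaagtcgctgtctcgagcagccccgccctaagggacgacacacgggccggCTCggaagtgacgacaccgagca
Rps27: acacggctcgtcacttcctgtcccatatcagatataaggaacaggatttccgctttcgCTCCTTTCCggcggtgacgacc
Rps27l: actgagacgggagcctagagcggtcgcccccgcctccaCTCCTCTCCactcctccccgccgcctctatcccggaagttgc
Rpl22: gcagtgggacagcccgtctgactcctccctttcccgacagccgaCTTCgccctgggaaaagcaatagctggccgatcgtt
Rpl22l1: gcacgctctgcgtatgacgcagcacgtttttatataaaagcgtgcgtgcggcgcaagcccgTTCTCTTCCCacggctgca
Rpl39: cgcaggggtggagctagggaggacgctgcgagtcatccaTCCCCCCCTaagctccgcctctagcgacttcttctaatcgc
Rpl39l: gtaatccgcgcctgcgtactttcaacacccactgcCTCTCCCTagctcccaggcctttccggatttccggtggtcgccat
The run was 10 bases in Rps6, 21 in Rpl7a, 7 in Rplp0 and 3 in Rpl41. Among the paralog pairs it was 9 bases in both Rps27 and Rps27l, 10 in Rpl22l1 beside 4 in Rpl22, and 8 in Rpl39l beside 9 in Rpl39. The base before the capitals of Rpl39l is also a C, so its run was cut at the edge and is longer than 8 bases. Positions differed, as the printed run of Rps27 spanned the annotated start and that of Rpl22l1 began just after it. The printed runs of Rps27l, Rpl22, Rpl39 and Rpl39l ended before the start. Rps27l and Rpl22 each had another entry, not printed, whose run was 5 bases.

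Each of the 77 genes that are not paralogs named with an l was found in all 6 libraries. Their mean FPKM, the authors' value per length and depth, ran from 16.1 (Rpl21) to 645 (Rplp1) with a median of 95.4. Rplp1, an acidic protein of the stalk that engages elongation factors, was highest, followed by Rps15 at 425, Rps24 at 398, Rplp0 at 389, Rpl8 at 345, Rps3a1 at 297 and Rpl19 at 286 FPKM. For 80 of the genes the length implied by the 2 deposited tables could be computed. It was scaled so that over expressed genes its median matched the union of all annotated exons. Its median absolute log2 deviation was 0.000638 from that union and 1.21 from the shortest principal transcript, where the second value includes the scaling. Over 9882 expressed genes, with each length centred on its own median, the deviations were 0.000782 and 0.418. The union was up to 9.80 times as long as that transcript (Rps15a), with a median of 2.35 times.

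Levels were therefore also set per length of the shortest principal transcript, as CPM per kb. On that scale the 77 genes ran from 38.7 (Rps20) to 711 (Rplp1) with a median of 239, and the SD of their log2 levels was 0.70 against 1.13 for FPKM. Rps19, the gene most often mutated in human Diamond-Blackfan anaemia, had a mean of 28.3 FPKM and ranked 75, but ranked 46 per kb of principal transcript. Rps24 showed the opposite, with rank 3 by FPKM and rank 49 per kb, and its tables implied a length of 840 bases where the annotation gives a union of 6256 and a principal transcript of 1613. The implied length was also below the union for genes such as Rpl8 (862 against 1359), Rps23 (756 against 1268) and Rpl7l1 (2605 against 3495). The low position of Rps20 per kb went with a principal transcript annotated at 3706 bases. The order of levels between these genes thus depended on the length used, while comparisons of one gene between libraries did not.

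**Figure D1:**
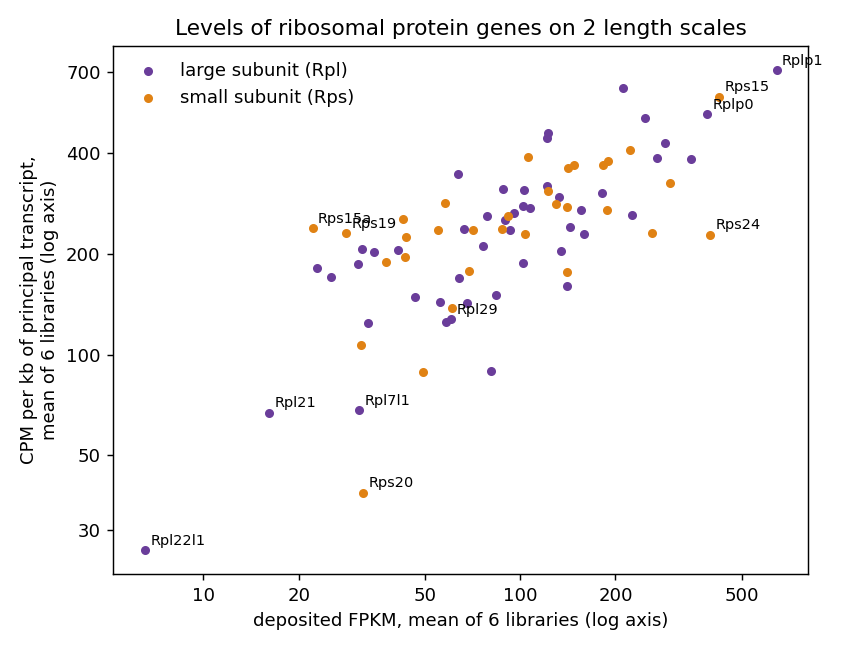
Mean level of each ribosomal protein gene over the 6 libraries as deposited FPKM (horizontal, log axis) and as CPM per kb of the shortest principal transcript (vertical, log axis), with large subunit genes in purple and small subunit genes in orange. Rplp1 lies at the top on both scales (645 FPKM and 711 CPM per kb), Rps24 moves from rank 3 to rank 49, and genes at or below 1 FPKM are not drawn.

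No ribosomal protein gene differed between hHVS and PCL past the threshold. At an adjusted p under 0.05 (edgeR quasi-likelihood test, Benjamini-Hochberg over 16364 genes), 0 of the 81 tested genes were higher and 0 lower on hHVS, where 0.562% of all tested genes were called higher and 0.299% lower (0.862% in all). The lowest adjusted p was 0.263 (edgeR, Rps27a), and DESeq2, limma-voom and limma on log2 FPKM also called 0 of them. At an unadjusted p under 0.05, edgeR gave 0 higher and 5 lower, or 6.17% of the 81, against 6.99% and 6.14% of all genes, so the lower share lay at the background. They included Rps27a, Rpl39l, Rps10 and Rpl18, of which Rpl18 is named here after its values were seen.

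The estimates leaned to one side. The log2 fold change, hHVS minus PCL, was negative for 70 of the 81 genes, against 52.2% of all tested genes, and its median was -0.12 against -0.01 over all genes. All fold changes given are from the count fit, also where levels are given as FPKM. The 95% interval of the fold change lay within 1.5-fold in either direction for 68 genes, and within 2-fold for 78, and the interval of the log2 fold change held 0 for 76. The lowest hHVS library stood above the highest PCL library for 0 genes, against 10.7% of all genes. The highest hHVS library stood below the lowest PCL library for 7 genes (Rpl3, Rpl14, Rpl18, Rpl39l, Rplp0 and Rps10 among them), or 8.64%, against 9.89% of all genes.

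**Figure D2:**
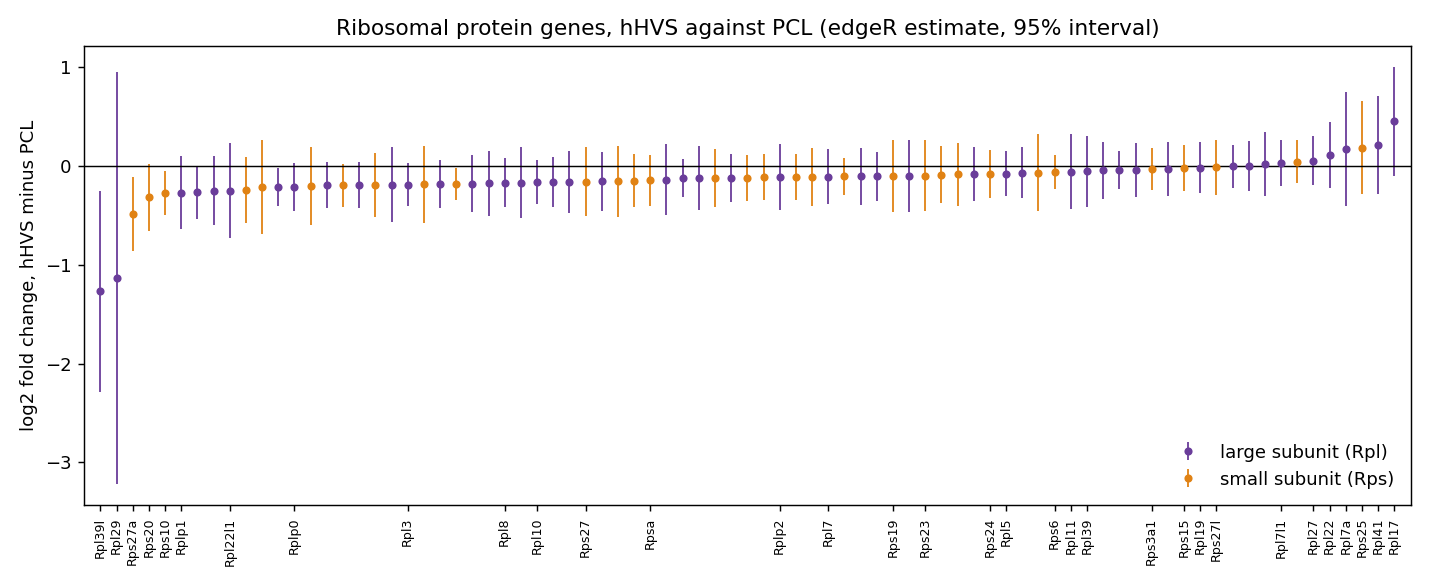
Log2 fold change, hHVS minus PCL, of the 81 tested ribosomal protein genes in rising order, with 95% intervals of the edgeR fit as bars, large subunit genes in purple, small subunit genes in orange and names for some of the genes. Estimates lie below 0 for 70 genes, 76 intervals include 0, and Rpl29 has the widest interval.

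PCL replicates 1 and 3 differed more from each other than the hHVS libraries did. Together the 83 genes took 1.55, 1.53 and 1.47% of the units in hHVS replicates 1 to 3, and 1.52, 1.67 and 2.03% in PCL replicates 1 to 3. Means were 1.52 ± 0.0421% on hHVS and 1.74 ± 0.263% on PCL (SD, n = 3 each), a difference of -0.22 percentage points that narrowed to -0.0743 without PCL replicate 3. Without PCL replicate 1 the difference was -0.33 percentage points. The hHVS libraries lay close together, and PCL replicate 1 lay among them, so the groups overlapped in units. As a share of summed FPKM the genes took 2.73, 2.74 and 2.63% in hHVS replicates 1 to 3 and 2.86, 3.05 and 3.54% in PCL replicates 1 to 3, where the groups did not overlap. With 3 libraries against 3 an exact two-sided permutation test cannot go below p = 0.1, so none was run. In bulk RNA, a smaller share of cells with high levels and a lower level per cell cannot be told apart.

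Gene by gene the picture was the same. PCL replicate 3 was the highest of the 6 libraries for 69 of the 81 genes (85.2%), against 24.4% of all tested genes. PCL replicate 1 was the lowest for 51 (63.0%), against 15.1% of all genes. The median deviation from a gene's own mean, on the log2 scale, was 0.00, -0.07 and -0.11 in hHVS replicates 1 to 3, and -0.17, 0.04 and 0.27 in PCL replicates 1 to 3. The same deviation over all tested genes lay between 0.00 and 0.01 in every library. Scaling between libraries tends to hold that median near 0, so it does not show that a library was ordinary in its other genes. The widest gap was inside the PCL group, with a median of 0.41 between PCL replicates 3 and 1, and the hHVS libraries fell between them. Without PCL replicate 3 the median log2 fold change of the ribosomal protein genes was 0.01, and 37 of 81 were negative. Without PCL replicate 1 the median was -0.23.

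**Figure D3:**
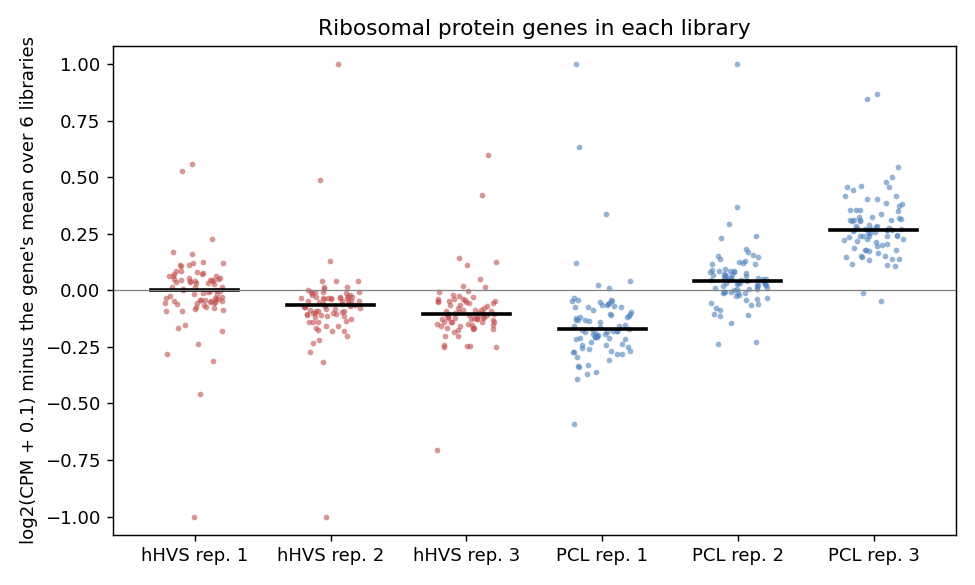
Deviation of each of the 81 tested ribosomal protein genes from its own mean over the 6 libraries (log2 of CPM plus 0.1), with hHVS libraries in red, PCL libraries in blue, a black line at the median of each library and 5 points drawn at the limit of 1 on either side. PCL replicate 3 lies highest with a median of 0.27 and PCL replicate 1 lowest with -0.17, and the 3 hHVS libraries lie between.

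The spread within groups was set beside that of 3624 genes of the same range of level (54.4 to 712 CPM). Among the 77 genes that are not paralogs, the median within-group SD of log2 CPM on hHVS was 0.0748, against 0.0678 for the genes of like level. On PCL it was 0.217 against 0.125. On hHVS 5 of the 77 lay above the 95th percentile of the genes of like level, and these are described further on (Rpl29, Rpl7a, Rpl41, Rpl17 and Rps25). On PCL 1 did, so the wider PCL spread was shared by most of these genes.

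The stalk proteins recruit elongation factors to the large subunit, and none passed the test. Rplp0, the stalk base, was at 669, 660 and 650 CPM in hHVS replicates 1 to 3 and at 674, 735 and 882 CPM in PCL replicates 1 to 3. Its hHVS libraries lay below all PCL libraries, PCL replicate 1 only just above them, and its log2 fold change was -0.21 ± 0.10 (SE; 95% interval -0.45 to 0.03, adjusted p = 0.435, edgeR). Rplp1 was at 337, 310 and 318 CPM on hHVS and 296, 393 and 475 CPM on PCL, so that PCL held both the lowest and the highest value. Its log2 fold change was -0.27 ± 0.16 (adjusted p = 0.516, edgeR). Rplp2, the partner of Rplp1 in the stalk dimers, was at 152, 139 and 130 CPM on hHVS and 120, 159 and 175 CPM on PCL. The groups overlapped, and its log2 fold change was -0.11 ± 0.14 (adjusted p = 0.79, edgeR). All 3 were highest in PCL replicate 3, and the median over them was -0.21.

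Among small subunit genes with known roles beyond the structure of the ribosome, none passed the test. Rps6, the substrate of the S6 kinases downstream of mTORC1, was at 323, 335 and 320 CPM on hHVS and 315, 339 and 365 CPM on PCL. The groups overlapped, and the log2 fold change was -0.06 ± 0.07 (95% interval -0.23 to 0.12, adjusted p = 0.779, edgeR). Rpsa, also known as a laminin receptor, was at 431, 448 and 413 CPM on hHVS and 436, 430 and 558 CPM on PCL. Only PCL replicate 3 stood apart for Rpsa, and its log2 fold change was -0.14 ± 0.11 (adjusted p = 0.637, edgeR). Rps19 was at 157, 138 and 128 CPM on hHVS and 122, 146 and 185 CPM on PCL, with PCL again at both ends.

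The small subunit genes with the highest FPKM were again lowest within PCL in replicate 1 and highest in replicate 3. Rps15 was at 419, 415 and 402 FPKM on hHVS and 385, 426 and 502 FPKM on PCL. Rps24 was at 372, 378 and 381 FPKM on hHVS and 365, 402 and 487 FPKM on PCL. Rps3a1 was at 292, 292 and 273 FPKM on hHVS and 282, 291 and 349 FPKM on PCL. In each of these the hHVS libraries lay within a narrow band inside the PCL range, or at its lower end. Rps23, which lies near the decoding centre, was at 254, 248 and 235 FPKM on hHVS and 221, 256 and 351 FPKM on PCL. Their log2 fold changes were -0.02 for Rps15, -0.08 for Rps24, -0.03 for Rps3a1 and -0.10 for Rps23, with adjusted p-values of 0.962, 0.795, 0.911 and 0.834 (edgeR).

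Further small subunit genes had an unadjusted p under 0.05 or an estimate among the lowest. Rps27a, which is translated as a fusion of ubiquitin and the ribosomal protein, was at 53.4, 55.0 and 61.7 CPM on hHVS and 83.8, 60 and 94.0 CPM on PCL. PCL replicate 2 lay inside the hHVS range while the other PCL libraries lay above it, and the log2 fold change was -0.48 ± 0.16 (unadjusted p = 0.0188, adjusted p = 0.263, edgeR). With the pseudogenes that share its sequence, a sum added after the values were seen, it was at 115, 110 and 113 CPM on hHVS and 127, 121 and 173 CPM on PCL, without overlap and with a log2 fold change of -0.32. Rps10 was at 111, 100 and 108 CPM on hHVS and 127, 143 and 116 CPM on PCL. Its groups did not overlap, and unlike most of these genes it was lowest within PCL in replicate 3, with a log2 fold change of -0.27 ± 0.09 (95% interval -0.50 to -0.05, unadjusted p = 0.0221, adjusted p = 0.276, edgeR). Of the 50-base words of its transcript, 92.4% occurred in other genes, and summed with its pseudogenes in the same way it was at 198, 188 and 196 CPM on hHVS and 204, 223 and 197 CPM on PCL. Those groups overlapped, and the log2 fold change of the sum was -0.10. Rps20 was at 136, 128 and 119 CPM on hHVS and 123, 183 and 171 CPM on PCL, where replicate 1 lay among the hHVS libraries and replicates 2 and 3 above them. Its log2 fold change was -0.31 ± 0.15 (adjusted p = 0.416, edgeR).

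Rpl5 and Rpl11, which with 5S RNA form the particle that restrains Mdm2 when ribosome assembly is disturbed, did not pass the test. Rpl5 was at 305, 272 and 280 CPM on hHVS and 272, 293 and 337 CPM on PCL. Rpl11 was at 220, 167 and 195 CPM on hHVS and 155, 222 and 227 CPM on PCL. The groups overlapped for both, with log2 fold changes of -0.08 ± 0.10 for Rpl5 and -0.05 ± 0.16 for Rpl11 (adjusted p = 0.782 and 0.916, edgeR).

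Among the abundant large subunit genes, Rpl8, which lies close to the peptidyl transferase centre, was at 318, 331 and 300 FPKM on hHVS and 325, 364 and 433 FPKM on PCL. Rpl19 was at 290, 282 and 260 FPKM on hHVS and 260, 277 and 348 FPKM on PCL. Both were highest in PCL replicate 3 and overlapped otherwise, with log2 fold changes of -0.17 ± 0.11 and -0.01 ± 0.11 (adjusted p = 0.548 and 0.97, edgeR). Rpl18 was at 132, 136 and 124 CPM on hHVS and 143, 146 and 165 CPM on PCL, without overlap, and its log2 fold change was -0.21 ± 0.08 (unadjusted p = 0.0348, adjusted p = 0.33, edgeR). Rpl3, a core protein of the peptidyl transferase region, was at 347, 354 and 339 CPM on hHVS and 358, 377 and 448 CPM on PCL, also without overlap (log2 fold change -0.19 ± 0.09, adjusted p = 0.447, edgeR). Rpl10, which joins the large subunit late in assembly, was at 207, 186 and 180 CPM on hHVS and 193, 213 and 234 CPM on PCL. Rpl27 had one of the few positive estimates, 0.06 ± 0.10, with 140, 127 and 131 CPM on hHVS and 110, 129 and 143 CPM on PCL, and it did not pass (adjusted p = 0.856, edgeR).

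Of the large subunit proteins that line or surround the exit of the nascent chain tunnel, 8 were listed. All 8 were lowest in PCL replicate 1 and 6 were highest in PCL replicate 3, with a median log2 fold change of -0.05. Of the 18 genes linked to Diamond-Blackfan anaemia in people, 17 had negative estimates with a median of -0.11, 16 were highest in PCL replicate 3, and 0 passed in either direction. Genes with large subunit names had a median of -0.12 and those with small subunit names one of -0.11, and 83.7% and 87.5% of them were highest in PCL replicate 3.

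Among the 77 genes that are not paralogs named with an l, the 5 with the widest spread on hHVS departed in part from the common library order. They were picked for that spread, which favours an extreme hHVS library, so their order is a description only. None was highest in PCL replicate 3, but Rpl17, Rpl41 and Rps25 still rose from PCL replicate 1, their lowest library, to replicate 3. Rpl29, a basic large subunit protein also known for binding heparin, was at 3.89, 106 and 29.8 CPM on hHVS and 100, 120 and 87.5 CPM on PCL. Its hHVS libraries thus spanned a 27.2-fold range, replicate 2 lay with the PCL libraries, and replicates 1 and 3 lay below them. The log2 fold change was -1.13 ± 0.89 (95% interval -3.22 to 0.96, adjusted p = 0.641, edgeR). It was -2.60 without hHVS replicate 2, -0.59 without hHVS replicate 1, -2.08 with limma-voom and -1.98 with the replicate number as a block. Rpl7a was at 81.2, 115 and 169 CPM on hHVS and 106, 94.7 and 123 CPM on PCL, with hHVS at both ends (log2 fold change 0.17 ± 0.25, adjusted p = 0.805, edgeR). Rpl17 was at 56.7, 94.0 and 89.7 CPM on hHVS and 44.4, 57.1 and 74.1 CPM on PCL, where hHVS replicates 2 and 3 lay above all PCL libraries. It had the highest estimate of all 81, 0.45 ± 0.24 (95% interval -0.10 to 1.01, adjusted p = 0.465, edgeR). Rpl41, which encodes one of the shortest known proteins, was at 395, 262 and 226 CPM on hHVS and 212, 257 and 290 CPM on PCL. Rps25, used by some viral internal entry sites, was at 184, 116 and 116 CPM on hHVS and 105, 119 and 140 CPM on PCL. In both of these hHVS replicate 1 was the high library, and the others of the 2 groups overlapped.

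Several of these 5 genes share much of their sequence with other genes. Cut into words of 50 bases, 78.5% of the Rpl29 principal transcript occurred in other genes (84 of them), 81.2% of Rpl7a (123 genes) and 78.7% of Rpl17 (51 genes). Over all 83 genes the median was 57.4%, and 52 genes shared more than 50% of their words. The counting of reads that match several genes is not stated in the labels, and these levels are uncertain. As a check added after the values were seen, each pseudogene that shares at least 50 words was added to the ribosomal protein gene with which it shares most. The 528 pseudogenes together held between 12.9 and 13.3% of the summed units in every library.

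With pseudogenes added, the sums of Rpl7a and Rpl17 were highest in PCL replicate 3 and lowest in PCL replicate 1. Rpl17 alone was already lowest in PCL replicate 1. The 39 pseudogenes of Rpl7a were at 246, 230 and 180 CPM on hHVS and 189, 250 and 262 CPM on PCL, highest on hHVS in replicate 1, where the gene was lowest. The sum was 327, 344 and 349 CPM on hHVS and 294, 345 and 387 CPM on PCL, and its log2 fold change was -0.01. Its coefficient of variation within groups (root mean square of the hHVS and PCL values) was 9.87%, against 27.4% for the gene alone. For Rpl17 and its 15 pseudogenes the sum was 303, 280 and 281 CPM on hHVS and 265, 295 and 337 CPM on PCL. The same within-group coefficient was 9.04% against 25.4%, and the positive estimate of the gene alone gave way to -0.05. Rpl29 kept its irregular values, and its 32 pseudogenes lay between 51.8 and 58.0 CPM in all libraries. Its sum was 59.3, 160 and 86.0 CPM on hHVS and 152, 178 and 140 CPM on PCL, with a log2 fold change of -0.62. Rpl41 had no such pseudogene, and those of Rps25 lay between 3.35 and 6.38 CPM, so both kept their high value in hHVS replicate 1. Over all genes with such pseudogenes the within-group coefficient of variation was lower in the sum for 23 of 75. PCL replicate 3 was the highest library for 74 of 81 sums.

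**Figure D4:**
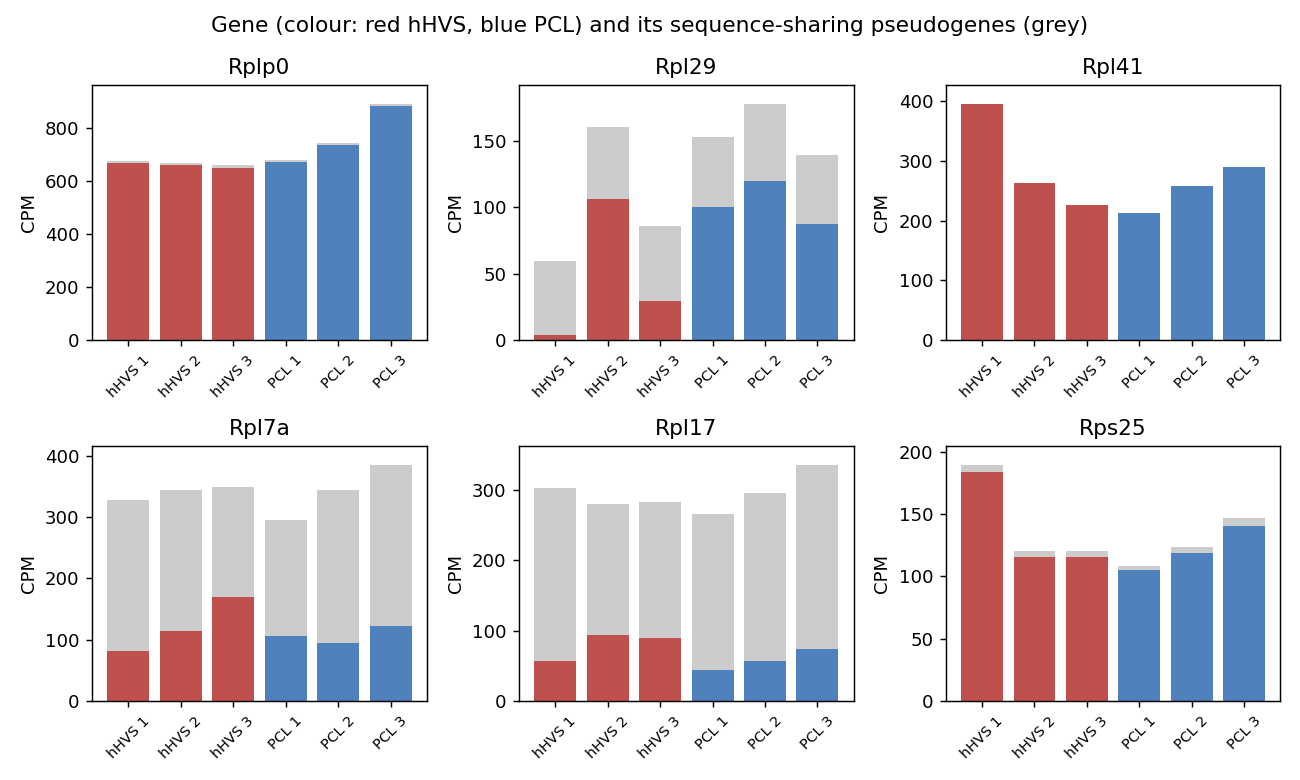
CPM of Rplp0 and of the 5 ribosomal protein genes with the widest spread on hHVS among the 77 that are not paralogs named with an l, by library (bars from 0, hHVS in red and PCL in blue), with the CPM of pseudogenes that share their sequence stacked in grey. The stacked height of Rpl7a and Rpl17 is more even than the coloured part, while Rpl29 at 3.89 CPM in hHVS replicate 1 and Rpl41 at 395 CPM in the same library stay apart.

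Among the 6 paralogs named with an l, 4 were tested and 0 passed. Rpl7l1, related to Rpl7, was at 32.3, 28.3 and 31.3 FPKM on hHVS and 28.6, 31.1 and 34.8 FPKM on PCL. This was 35.3 ± 0.324% of the FPKM of Rpl7 on hHVS and 32.4 ± 3.58% on PCL (SD, n = 3 each). Rps27l, a p53 target in human cells, was at 47.6, 49.7 and 45.9 FPKM on hHVS and 43.6, 47.8 and 60.4 FPKM on PCL. This was 73.9 ± 8.59% of the FPKM of Rps27 on hHVS and 66.4 ± 2.32% on PCL (SD, n = 3 each). Both percentages depend on the length used. Per kb of principal transcript, means over all libraries were 88.8 CPM for Rps27l beside 236 for Rps27, and 68.3 for Rpl7l1 beside 236 for Rpl7. Neither paralog differed between the scaffolds beyond the spread (log2 fold changes 0.03 ± 0.10 and -0.01 ± 0.12, adjusted p = 0.921 and 0.978, edgeR).

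Rpl22l1, whose messenger the Rpl22 protein represses in mouse cells, was at 6.16, 5.65 and 5.63 FPKM on hHVS and 5.02, 7.59 and 9.16 FPKM on PCL. Its FPKM was 22.9 ± 2.35% of that of Rpl22 on hHVS and 28.8 ± 4.6% on PCL (SD, n = 3 each), with the libraries of the groups overlapping. Per kb of principal transcript, means over all libraries were 26.0 CPM for Rpl22l1 beside 171 for Rpl22, so this percentage also depends on the length used. The log2 fold change was -0.25 ± 0.21 for Rpl22l1 and 0.11 ± 0.14 for Rpl22 (adjusted p = 0.66 and 0.781, edgeR). Rpl22 itself was at 28.2, 22 and 26.4 FPKM on hHVS and 21.3, 23.8 and 29.5 FPKM on PCL. The estimate of Rpl22l1 was -0.46 when PCL replicate 1 was left out, but -0.061 when PCL replicate 3 was, and that of Rpl22 ran from 0.010 to 0.24 with 1 library left out.

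Rpl39l, known from the male germ line, had the lowest estimate of the 81 genes at a very low level. It was at 0.465, 0.219 and 0.478 FPKM on hHVS and 1.04, 0.685 and 1.26 FPKM on PCL, from 32, 17 and 35 units on hHVS and 71, 46 and 86 units on PCL. All hHVS libraries lay below all PCL libraries, and the log2 fold change was -1.27 ± 0.44 (95% interval -2.29 to -0.25, unadjusted p = 0.0212, adjusted p = 0.272, edgeR). Since about 4 units are 1 fragment, these values rest on few fragments, and 0% of the words of Rpl39l occurred in other genes. Its partner Rpl39 at the exit tunnel was at 55.3, 52.3 and 52.4 FPKM on hHVS and 45, 58.5 and 71.2 FPKM on PCL, so Rpl39l was at 0.724 ± 0.267% of Rpl39 on hHVS and 1.75 ± 0.572% on PCL (SD, n = 3 each). Rpl3l, of striated muscle, had 11, 11 and 0 units on hHVS and 0, 0 and 3 units on PCL, all under the floor of 12 units (3 fragments). Rpl10l, of the testis, had 0 units in every library, which allows up to 0.144 to 0.166 CPM per library.

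**Figure D5:**
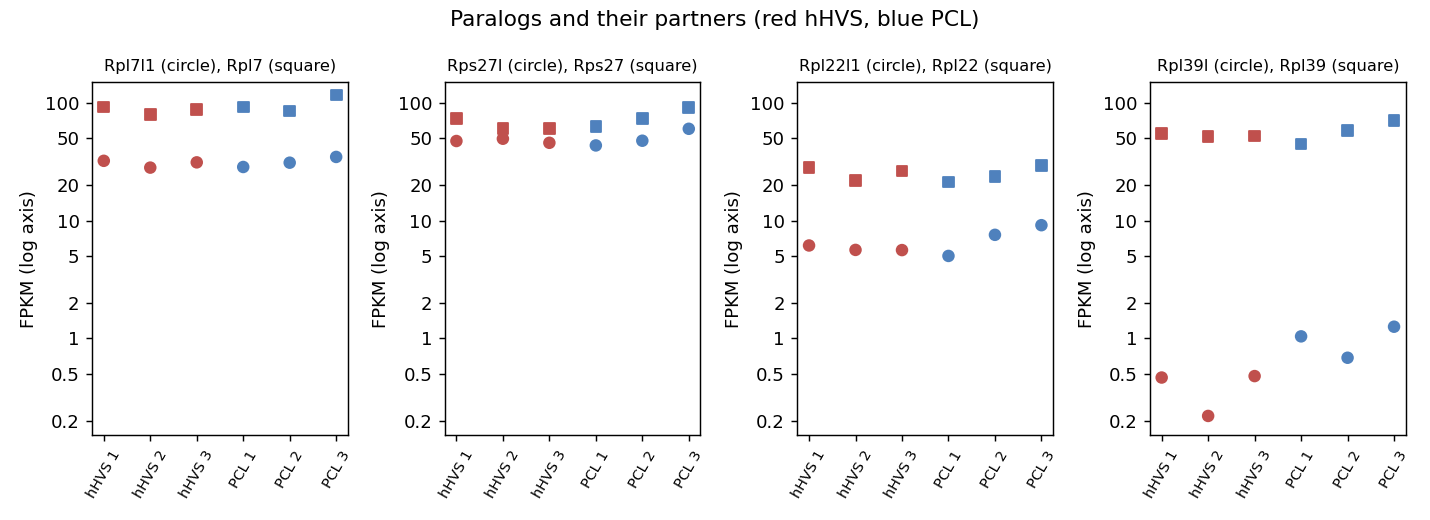
Deposited FPKM (log axis) of 4 paralogs (circles) and their partners (squares) in each library, hHVS in red and PCL in blue. Rps27l lies closest to its partner, and Rpl39l lies lowest, at 0.219 to 0.478 FPKM on hHVS and 0.685 to 1.26 FPKM on PCL.

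Ribosome components that the name rule leaves out followed the same library order. Of 5 such genes 4 were highest in PCL replicate 3, and 0 passed the test. Rack1, the scaffold protein at the head of the small subunit, averaged 348 ± 13.3 CPM on hHVS, against 432 ± 81.5 CPM on PCL (SD, n = 3 each; log2 fold change -0.31 ± 0.13, unadjusted p = 0.0466, adjusted p = 0.37, edgeR). Fau, which encodes a ubiquitin-like fusion with the small subunit protein eS30, averaged 287 ± 15.0 CPM on hHVS, against 312 ± 66.5 CPM on PCL (SD, n = 3 each).

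Lists of related genes were counted in the same way. Of 21 translation factors and other TOP transcripts, 11 had negative estimates (median -0.04), 14 were highest in PCL replicate 3, and 0 passed. Eif2s3x, the gamma subunit of the initiation factor eIF2, averaged 106 ± 3.47 CPM on hHVS, against 93.0 ± 7.17 CPM on PCL (SD, n = 3 each; log2 fold change 0.19 ± 0.08, unadjusted p = 0.0461, adjusted p = 0.368, edgeR). Of 43 ribosome biogenesis genes, 34 had negative estimates (median -0.12), 30 were highest in PCL replicate 3, and 0 passed. Nop58, a core protein of the box C/D particles that methylate ribosomal RNA, averaged 28.2 ± 3.17 CPM on hHVS, against 36.4 ± 5.32 CPM on PCL (SD, n = 3 each; log2 fold change -0.37 ± 0.13, adjusted p = 0.285, edgeR). Of 26 genes of mTORC1 and TOP control, 12 had negative estimates (median 0.00), 6 were highest in PCL replicate 3, and 0 passed. In that list Myc, a transcription factor that drives ribosome production, averaged 17.1 ± 3.43 CPM on hHVS, against 26.6 ± 2.75 CPM on PCL (SD, n = 3 each; log2 fold change -0.64 ± 0.16, unadjusted p = 0.0051, adjusted p = 0.158, edgeR). Lamtor4 averaged 43.4 ± 2.48 CPM on hHVS, against 56.4 ± 8.19 CPM on PCL (SD, n = 3 each). Its log2 fold change was -0.38 ± 0.12 (unadjusted p = 0.0128, adjusted p = 0.227, edgeR). Rragc, a GTPase that brings mTORC1 to lysosomes, averaged 286 ± 4.88 CPM on hHVS, against 249 ± 20.7 CPM on PCL (SD, n = 3 each). The log2 fold change of Rragc was 0.20 ± 0.08 (unadjusted p = 0.0352, adjusted p = 0.333, edgeR). At an unadjusted p under 0.05 (edgeR) that list had 2 genes higher and 2 lower, or 7.69% each. Over all tested genes the shares were 6.99% and 6.14%, so the list lay near the background. Of the 78 mitochondrial ribosomal protein genes, which serve the separate ribosome of the mitochondrion, 52 had negative estimates (median -0.06), 57 were highest in PCL replicate 3 (73.1%), and 0 passed. The differences between these lists were not tested.

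Other features of the libraries were set beside the ribosomal protein share, and their part in it was not tested. Units from the mitochondrial genome were 3.90 ± 0.298% on hHVS and 2.66 ± 0.152% on PCL (SD, n = 3 each). Summed levels of 13 monocyte and macrophage marker records, none of them at 0, were 23072 to 23992 CPM on hHVS and 17831 to 20884 CPM on PCL. The 10 markers of cycling cells, again with none at 0, summed to 1013 to 1224 CPM on hHVS and 1123 to 1197 CPM on PCL, so those ranges overlapped. The 12 stromal markers, none at 0, summed to 13.5 to 73.3 CPM on hHVS and 44.7 to 183 CPM on PCL, and their highest library was PCL replicate 1, where ribosomal protein genes were lowest. Of 11 marker lists, 1 was highest in PCL replicate 3 (endothelial, 5 markers with none at 0, 8.47 to 8.94 CPM on hHVS and 11.1 to 13.2 CPM on PCL). Of the 7 mast cell and basophil markers, Fcer1a, Mcpt4 and Tpsb2 were at 0 in all libraries, and the list summed to 0.139 to 0.267 CPM on hHVS and 0.275 to 0.759 CPM on PCL. Summed CPM of the B lymphocyte list was 48.0 to 60.2 on hHVS and 27.6 to 86.8 on PCL, and that of the T lymphocyte and natural killer list was 6.53 to 8.35 on hHVS and 2.18 to 5.51 on PCL. Neutrophil markers summed to 17.2 to 19.0 CPM on hHVS and 15.6 to 18.1 CPM on PCL, and erythroid markers to 11 to 11.7 CPM on hHVS and 8.25 to 9.55 CPM on PCL. Megakaryocyte markers summed to 101 to 131 CPM on hHVS and 103 to 145 CPM on PCL, and dendritic cell markers to 1.75 to 2.36 CPM on hHVS and 1.43 to 2.15 CPM on PCL. The called genes in these lists were 0 except for 1 of the 9 erythroid markers.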

How the data were processed

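The authors deposited estimated counts and FPKM values per gene for 3 hHVS and 3 PCL libraries. The submitters' processing notes name FastQC, MultiQC, STAR and featureCounts as tools and mm10 as the build; the labels state no versions, no use of strand and no treatment of reads matching several genes. The deposited count table was first taken for raw counts, but its values peak at multiples of 4 (6544 cells hold 4, against 2701 with 3 and 1483 with 5), so 1 fragment was taken as about 4 units and the values were treated as estimated counts, already whole. Libraries held 18.0 to 20.9 M fragments by that scale. Intervals and floors cover counting error only where no replicate enters.

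Genes were filtered with filterByExpr (minimum count 10), scaled with TMM factors (0.959 to 1.05) and tested with edgeR 4.0.16 in R 4.3.3 (quasi-likelihood F test, group as the only term, Benjamini-Hochberg over 16364 genes). Beyond counting noise, the common coefficient of variation between replicates was 24.0%. The fit was tested on simulated data. Within groups no libraries were duplicates (chi-square per gene at least 9.69). That value was 25.3 and 27.4 for PCL replicate 3 beside PCL replicates 1 and 2, and at most 13.9 for the other pairs. Alternatives were DESeq2 1.42.0, limma 3.58.1 on counts and on log2(FPKM + 1) and log2(FPKM + 0.1), other scalings and filters, added pseudogenes and left-out libraries. Members and lists were chosen with earlier results of these data known. Named genes were those with the 6 highest and 6 lowest fold changes and the 4 highest FPKM per subunit. Paralogs with their partners and 8 genes of textbook interest were also named. Rpl14, Rpl18, Rpl21 and Rps15a were named after their values were seen. Sequences are from RefSeq; lengths and shared words are from GENCODE M21. Some members and list genes are not reported here by name.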

Additional observations from a re-analysis of the deposited data

How the results depend on the processing

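With every alternative tried, 0 ribosomal protein genes passed (0 to 0 with any single library left out), and their median log2 fold change kept its sign except where PCL replicate 3 was left out; it ran from -0.23 to 0.01 with 1 library left out and was 0.04 without both hHVS replicate 2 and PCL replicate 3 (34 of 81 negative). The share difference ran from -0.33 to -0.0743 percentage points. The count of all genes called, 141 (92 higher, 49 lower), was less stable: 76 without the filter on low counts, 656 with DESeq2 (375 higher, 281 lower), 84 with log2(FPKM + 0.1), 66 without both of those libraries, and 32 to 154 with 1 library left out. With unscaled library totals it was 145, with 71 higher and 74 lower, and the median of all genes was -0.09; the split was 47 and 47 with log2(FPKM + 1) and 41 and 43 with log2(FPKM + 0.1). Same-numbered libraries did not pair (r = 0.117, -0.0095 and -0.0607, with 2 of 6 libraries closest to their own number); with the replicate number as a block 36 genes were called (26 higher, 10 lower), 0 of them ribosomal, with a median of -0.11 over these.

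No named gene passed under any alternative, but some estimates changed sign. Without hHVS replicate 2 and PCL replicate 3, log2 fold changes were 0.14 for Rpl11, 0.10 for Rpl19, 0.13 for Rpl39, 0.052 for Rpl5, 0.091 for Rpl7, 0.018 for Rplp2, 0.086 for Rps15, 0.097 for Rps19, 0.11 for Rps23, 0.042 for Rps24, 0.041 for Rps27, 0.10 for Rps27l and 0.052 for Rps3a1. Rpl17 gave -0.024 with named pseudogenes added and -0.054 with word-sharing ones, which were chosen after seeing the data, and Rpl7a gave -0.0069 with the word-sharing ones. With library totals Rpl27 gave -0.027 and Rpl7l1 -0.051. With log2(FPKM + 1) Rpl27 gave -0.0090 and Rpl7l1 -0.038, and with log2(FPKM + 0.1) they gave -0.0090 and -0.039. Rps27l gave 0.000155 with limma-voom and 0.000525 with the block. With 1 library left out, estimates ran from -0.21 to 0.044 for Rpl11, from -0.10 to 0.11 for Rpl19, from -0.039 to 0.15 for Rpl27, from -0.21 to 0.10 for Rpl39, from -0.056 to 0.38 for Rpl41, from -0.14 to 0.015 for Rpl5, from -0.18 to 0.025 for Rpl7, from -0.14 to 0.39 for Rpl7a, from -0.038 to 0.095 for Rpl7l1, from -0.25 to 0.010 for Rplp2, from -0.10 to 0.079 for Rps15, from -0.23 to 0.076 for Rps19, from -0.24 to 0.10 for Rps23, from -0.17 to 0.033 for Rps24, from -0.073 to 0.31 for Rps25, from -0.11 to 0.12 for Rps27l and from -0.093 to 0.056 for Rps3a1. The causes were not tested. Depth limits Rpl39l, Rpl3l and Rpl10l, which rest on few or no fragments. Of the 83 genes, 52 share more than 50% of their words with other genes, and beyond the sums with pseudogenes its bearing on their values was not tested.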
